A study of Sus scrofa with 50 samples.

Results

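A single question was asked of Korean minipigs of the types ET and L: whether the types differed in loin in the same way as in tenderloin. The comparison used 18 of the 20 muscle libraries, and of the 50 libraries of the series, namely loin and tenderloin of 9 animals. The 5 of type ET are S0235, S0242 and S0276 with S0309 and S0326, and the 4 of type L are S0349 and S0377 with S0384 and S0385; values of single libraries are given in this order. Each animal gave both muscles. The labels name the type, the tissue and the animal, and the meaning of ET and L, the age, sex and feed of the animals and the exact muscle sampled are not given in the sources used here. Messenger RNA was sequenced from total RNA, and the deposited values are TPM, the share of each assembled transcript among all transcripts after correction for its length. TPM of transcripts with the same closest Swiss-Prot protein were added up and are called a gene here. Read depth is unknown, so the precision comes from the spread between animals alone.

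In pigs the loin is a mostly fast, glycolytic muscle, and the tenderloin holds more slow, oxidative fibres. Fast fibres carry the myosins MYH1, MYH2 and MYH4 and burn glycogen, whereas slow fibres carry MYH7 and burn fat. Transcription factors such as SOX6, NFATC1, TEAD1 and the MEF2 family set these programmes, and stress, fasting and glucocorticoids act on muscle through ubiquitin ligases and autophagy genes. In whole-muscle RNA, fewer fibres of a kind and less RNA per fibre cannot be told apart.

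The tenth muscle donor, S0355 of the L type, was left out because its library labelled loin held fat transcripts: the adipocyte hormone ADIPOQ stood at 1139 TPM and the muscle creatine kinase CKM at 0.638 TPM, against 0 to 4.20 and 17145 to 34871 TPM in the 18 libraries used. The library labelled backfat of the same animal held the reverse, with ADIPOQ at 3.33 TPM and CKM at 23749 TPM, beside 182 to 6980 and 0.0954 to 97.9 TPM in the 9 other backfat libraries. Both libraries thus go against their tissue labels, in the manner of an exchange, which was not tested, and every value given with S0355 takes its loin level from the library that held fat transcripts. Among the 18 libraries MYH4 separated the muscles, at 5956 to 21690 TPM in loin and 63.2 to 584 TPM in tenderloin. The ranges of the other adult myosins overlapped: MYH7 stood at 479 to 2754 TPM in loin and 2535 to 5889 TPM in tenderloin, MYH1 at 5180 to 12578 and 1724 to 8082 TPM, and MYH2 at 845 to 2790 and 367 to 1627 TPM. The loin library of S0235 stood apart from the other loin libraries. Its correlation with the loin minus tenderloin profile of the other animals was -0.06 across genes, against 0.24 to 0.74 in the other 8 loin libraries and -0.62 to -0.32 in tenderloin. The composition of the libraries also differed by group. Of the TPM, 25.4% to 29.2% in ET loin belonged to the 10 most abundant genes, and 18.9% to 24.6% in L loin, against 22.3% to 31.5% in ET tenderloin and 27.1% to 31.6% in L tenderloin. Skeletal actin ACTA1 alone stood at 16427 to 23952 TPM in ET loin and 3585 to 13567 TPM in L loin, against 16242 to 26337 and 11342 to 17719 TPM in ET and L tenderloin.

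The quantity tested was the interaction, (ET minus L in loin) minus (ET minus L in tenderloin) on log2(TPM + 1), which equals ET minus L of each animal's own loin minus tenderloin difference. A positive value says that ET stood higher relative to L in loin than in tenderloin. Of 10796 genes tested with limma, 1045 passed at a Benjamini-Hochberg adjusted p under 0.05, which is 9.68%. The interaction was higher than 0 in 74 of these (0.685% of the genes tested) and lower in 971 (8.99%), and 3334 genes had an unadjusted p under 0.05. The median over all genes was -0.27, so the centre of the distribution lay below 0. When each library was scaled by the median ratio of its genes, that median was -0.02 and the split became 137 higher (1.27%) and 124 lower (1.15%), for 261 genes in all (2.42%). The calls held under both scalings were 64 higher and 124 lower. The excess of lower calls therefore appeared on the deposited scale and not on the scaled one, and a named gene whose call was lost when scaled is said to have lost it.

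The calls also depended on single animals. Leaving out S0377, an L animal, gave 156 calls, and leaving out S0326, S0276 or S0309, all ET, gave 297, 335 or 359. Without S0385 there were 571 calls, and without S0235, whose loin library stood apart, 621. With S0355 added back, no gene passed by limma and 2212 had an unadjusted p under 0.05. Its library labelled loin held fat transcripts, so that fit cannot show how far the calls depend on an animal. The statements below are about the 9 animals.

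Where the interaction lay was described from the type difference in each muscle, with 0.5 on the log2 scale as the limit for a difference. Of the 971 genes called lower, 696 (71.7%) differed between the types in loin and not in tenderloin, 100 (10.3%) in tenderloin alone, and 42 (4.33%) in opposite directions. Their median difference was -0.82 in loin and 0.08 in tenderloin. Of the 74 genes called higher, 26 (35.1%) differed in loin alone, 20 (27%) in tenderloin alone and 14 (18.9%) in opposite directions, with medians of 0.74 in loin and -0.41 in tenderloin. Over all genes tested 27.4% differed in loin alone, 7.94% in tenderloin alone and 0.639% in opposite directions. The counts are on the deposited scale, where the median type difference over all genes was -0.21 in loin and 0.04 in tenderloin. Of the 971 genes, 124 were also called lower when scaled. The factors of the median-ratio scaling averaged 0.941 and 1.1 in ET and L loin, against 1.03 and 0.967 in ET and L tenderloin. Their part in the pattern was not tested. These shares come from the contrast that made the calls and are a description.

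**Figure D1:**
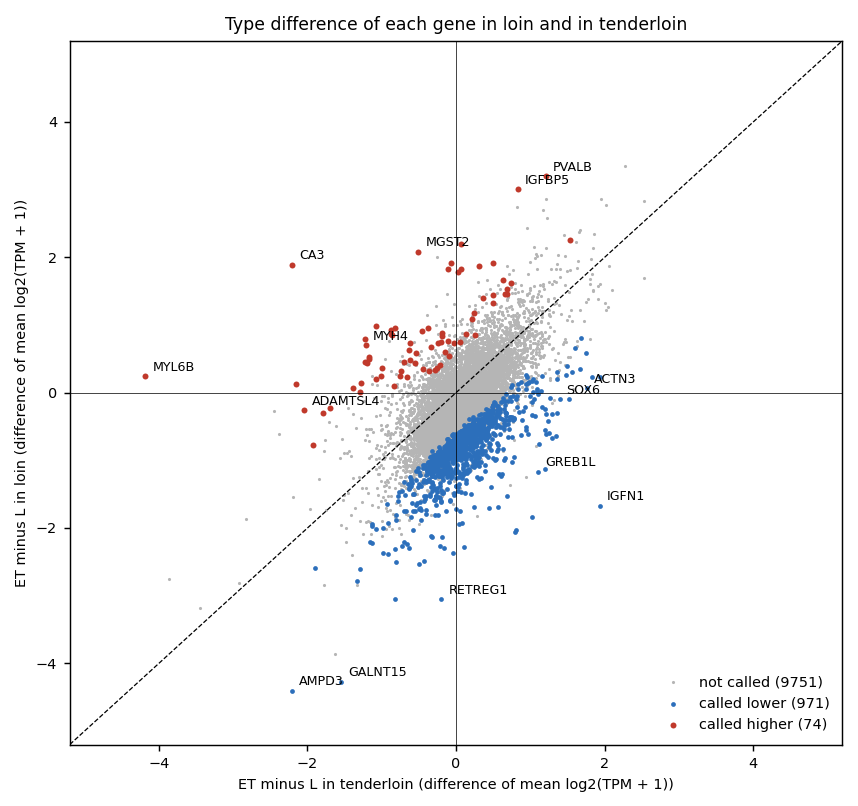
Each point is a gene, with its ET minus L difference in tenderloin on the horizontal axis and in loin on the vertical axis (differences of mean log2(TPM + 1), on the deposited scale). Genes on the dashed line had the same type difference in both muscles; the 971 genes called lower lie below it, mostly near 0 in tenderloin, and the 74 called higher lie above it, led by MYL6B and CA3.

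CA3, the carbonic anhydrase of muscle cytosol, which is abundant in slow fibres, had opposite type differences in the muscles. In loin it stood at 1601, 1540, 2290, 1280 and 2598 TPM in the ET animals, against 343, 1000, 413 and 386 TPM in the L animals. In tenderloin it stood at 587, 238, 422, 407 and 437 TPM in ET, against 984, 4170, 1959 and 1486 TPM in L. Neither muscle had an overlap between the types: every ET loin library lay above every L loin library, and every ET tenderloin library below every L tenderloin library. All 5 ET animals had more CA3 in loin than in tenderloin, by 1.45 to 2.69 on the log2 scale, and all 4 L animals had less, by values of -2.24 to -1.52. The log2 interaction was 4.10 (SE 0.29, limma adjusted p = 2.62e-05), and it lay between 3.97 and 4.28 when any 1 animal was left out. An exact two-sided permutation test over the 9 animals gave an unadjusted p = 0.0159, the smallest that the design allows. CA3 was picked from the fit to these same animals, so that p adds no independent support. With S0355 added the value was 4.82 and the adjusted p = 0.063. RefSeq's annotation of the Sscrofa11.1 pig genome places the gene of this symbol on chromosome 4, from 51227485 to 51237861.

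MYL6B, a myosin light chain of slow-twitch skeletal muscle and of non-muscle cells, had the largest interaction, and it came from tenderloin. Loin held 179, 96.7, 358, 150 and 171 TPM in ET animals, against 148, 196, 155 and 104 TPM in L animals, so the types overlapped there. Tenderloin held 58.4, 99.9, 61.2, 165 and 52.9 TPM in ET, against 5984, 3108, 527 and 460 TPM in L. The L tenderloin libraries all lay above the ET ones and differed more than 10-fold among themselves, with S0349 and S0377 highest. The interaction was 4.43 (SE 0.71, limma adjusted p = 0.0073) and between 3.75 and 4.94 without any 1 animal.

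The fast myosins did not move together. MYH4, the fastest of the adult myosin heavy chains, had levels of 6385, 21690, 19503, 19945 and 15969 TPM in ET loin, against 10336, 5956, 11958 and 10793 TPM in L loin. In ET tenderloin it had 63.2, 103, 114, 101 and 116 TPM, against 293, 120, 584 and 130 TPM in L tenderloin. ET animals thus had the wider gap between the muscles, 6.64 to 7.70 on the log2 scale against 4.35 to 6.36 in L animals, and the interaction was 1.92 (SE 0.36, limma adjusted p = 0.0122, and 0.0146 when scaled). The S0235 loin library was the lowest of the ET group for MYH4, and without that animal the limma adjusted p was 0.0147. The tenderloin library of the L animal S0355, which entered no fit, held 47.5 TPM of MYH4. That lay below every ET and L tenderloin library used. MYH2, the myosin of fast oxidative fibres, averaged 2008 ± 712 TPM in ET loin and 995 ± 91.2 TPM in L loin, against 550 ± 125 and 853 ± 546 TPM in ET and L tenderloin (SD, n = 5 ET and 4 L). Its interaction was 1.37 (limma adjusted p = 0.0288), and 4 of the 9 fits without 1 animal called it, with values of 1.05 to 1.67. MYH1 had an interaction of -0.84 (adjusted p = 0.189) and the slow myosin MYH7 one of -0.18 (adjusted p = 0.818), by limma, so neither passed. Myosin heavy chains are near-identical and their reads can be divided between entries, which makes each single value uncertain.

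Lists of genes are read against the shares called over all genes, 0.685% higher and 8.99% lower. Of 21 fast fibre contractile genes tested, 3 were higher and 4 lower, with a list median of -0.14 beside -0.27 for all genes. PVALB, the calcium buffer of fast fibres in rodents, had 49.2, 78.4, 46.1, 52.2 and 121 TPM in ET loin, against 11.6, 2.94, 23.5 and 1.16 TPM in L loin, and at most 4.05 TPM in ET and 0.886 TPM in L tenderloin. Its interaction was 1.98 (limma adjusted p = 0.0364, and 0.0596 when scaled), called in 3 of the 9 fits without 1 animal (1.44 to 2.40). In the tenderloin library of S0355, an L animal that entered no fit, PVALB stood at 6.38 TPM, above every ET tenderloin library. ACTN3, the Z-disc actinin of fast fibres, went the other way: it had 2107, 4765, 2813, 3345 and 2809 TPM in ET loin, against 3248, 2079, 4315 and 2507 TPM in L loin. ET tenderloin held 1056, 1539, 1378, 1115 and 690 TPM of it, against 154, 237, 1074 and 294 TPM in L tenderloin. In loin the types overlapped, and in tenderloin the L library of S0384 lay within the ET range and the other L libraries below it. The ACTN3 interaction was -1.70 (limma adjusted p = 0.0252), and it was lost when scaled (-1.40, adjusted p = 0.0851) and without S0276, S0377 or S0385. MYBPC2, a fast myosin-binding protein (-1.11), the contraction regulator SMTNL1 (-1.06) and the calcium pump ATP2A1 (-1.14) were also lower, and none of them passed when scaled. In this order they were called in 6, 7 and 1 of the 9 fits without 1 animal. Among 19 slow fibre contractile genes tested MYL6B alone was called, and the list median was 0.10.

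**Figure D2:**
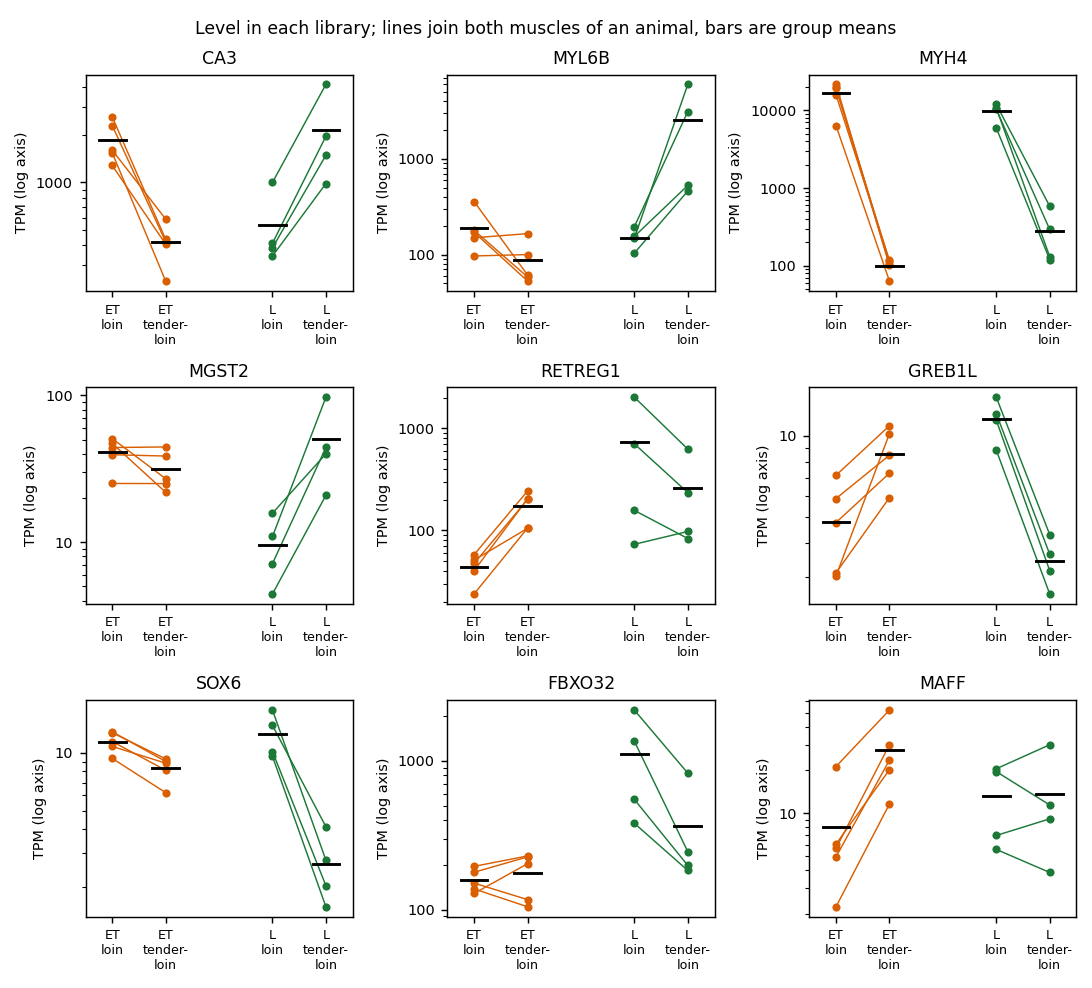
TPM of 9 genes in every library on log axes, with ET on the left and L on the right of each panel, loin before tenderloin; lines join the muscles of 1 animal and black bars are group means. CA3 and GREB1L slope in opposite directions in the types, MYL6B stands apart in L tenderloin alone, and RETREG1 and FBXO32 are highest in L loin.

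Genes of varied roles followed among the largest higher values. MGST2, a membrane glutathione transferase that makes leukotriene C4, had 50.8, 25.1, 44.1, 39.4 and 47.1 TPM in ET loin, against 10.9, 7.15, 15.8 and 4.44 TPM in L loin. Tenderloin had 27, 25.1, 44.5, 38.6 and 21.9 TPM in ET, against 97.1, 44.2, 39.9 and 20.8 TPM in L. The types were separate in loin and overlapped in tenderloin, and the interaction was 2.60 (SE 0.34, limma adjusted p = 0.00421). IGFBP5, a binding protein of insulin-like growth factors, had 40.3, 25.6, 42.4, 23.4 and 33.6 TPM in ET loin, against 2.95, 2.09, 2.50 and 5.66 TPM in L loin. In tenderloin it had 9.06, 19.1, 14.8, 20.5 and 13.8 TPM in ET, against 31.1, 2.28, 8 and 5.79 TPM in L, where S0349 was highest. Its interaction of 2.19 (limma adjusted p = 0.0325) was called in 4 of the 9 fits without 1 animal, at 1.55 to 2.55. MRPS6, a protein of the small mitochondrial ribosomal subunit, averaged 82.1 ± 64.1 TPM in ET loin and 40.2 ± 13.5 TPM in L loin, against 182 ± 102 and 398 ± 133 TPM in ET and L tenderloin (2.01, limma adjusted p = 0.00342). RCAN2, an inhibitor of calcineurin, had an interaction of 1.77 (limma adjusted p = 0.00594). It averaged 9.21 ± 7.63 and 3.76 ± 2.10 TPM in ET and L loin, against 37.1 ± 18.8 and 62.8 ± 17.2 TPM in ET and L tenderloin. Both genes were lower in loin than in tenderloin in all 9 animals, and by more in L animals. In ET loin S0235 held the most MRPS6 and RCAN2, at 192 and 22.5 TPM, against 26 to 73.4 and 3.41 to 7.73 TPM in the other ET animals.

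The glycerol channel AQP7 had 3.54, 2.05, 3.86, 6.01 and 2.34 TPM in ET loin, against 1.42, 1.46, 1.71 and 0.432 TPM in L loin. In tenderloin AQP7 stood at 4.14, 9.56, 6.14, 9.91 and 5.22 TPM in ET, against 12.7, 27, 16.6 and 9.02 TPM in L. ET lay above L in loin without overlap and mostly below it in tenderloin, with an interaction of 2.07 (limma adjusted p = 0.00594). Of 30 genes of fatty acid uptake and oxidation tested, FABP3, the fatty acid-binding protein of muscle (1.75, adjusted p = 0.0283), and the enoyl-CoA isomerase ECI1 (1.07, adjusted p = 0.0377) were higher by limma, and the acyl-CoA synthetase ACSL4 was lower (-1.70, adjusted p = 0.0191). FABP3 averaged 148 ± 179 and 59.0 ± 34.6 TPM in ET and L loin, against 444 ± 241 and 753 ± 98.1 TPM in ET and L tenderloin. The loin library of S0235 held 466 TPM of it. The other ET loin libraries held 39.8 to 104 TPM, within the L loin range of 30.3 to 108 TPM. LPL, the lipase that frees fatty acids from blood triglycerides, was the 1 gene called of 12 lipolysis and lipid droplet genes (1.46, limma adjusted p = 0.0355), and it averaged 19.5 ± 15.3 and 17 ± 7.88 TPM in loin of ET and L, against 56.2 ± 20.3 and 160 ± 105 TPM in tenderloin. For LPL too S0235 was the highest ET loin library, at 46.2 TPM, against 9.09 to 18 TPM in the others. FABP3, ECI1 and LPL were called in 3, 2 and 4 of the 9 fits without 1 animal. None of 11 adipocyte markers tested was called or had an unadjusted p under 0.05; their summed level was 121 to 322 TPM in ET loin and 95 to 141 TPM in L loin, against 193 to 316 and 113 to 200 TPM in ET and L tenderloin. ADIPOQ stayed at 4.20 TPM or below in these libraries.

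Among the remaining 15 largest higher values were the filamin-binding protein RFLNA at 2.28, IQCK at 2.12, ZNF385A at 1.98, CFAP206 at 1.93, the amino acid transporter SLC38A4 at 1.81 and the matrix protein ADAMTSL4 at 1.78. IQCK had the opposite sign when only the most abundant transcript of each gene was used (-0.33, limma adjusted p = 0.565). ZNF385A, SLC38A4 and ADAMTSL4 were each called in 2 of the 9 fits without 1 animal. CFAP206 was called in none of 8, and without S0326 it fell below the filter on low values: that animal's loin held 21.6 TPM, against 1.36 to 3.36 TPM in the loin of the other ET animals. These 4 genes did not pass when scaled, with adjusted p-values of 0.058 to 0.0731. RFLNA was called in 8, the exception being the fit without S0377. Of these 15 genes, 8 were called in every fit without 1 animal. PI16, a marker of fibroblast progenitors, was the 1 gene called of 16 fibroblast and fibro-adipogenic markers (1.42, limma adjusted p = 0.0172), at 13.1 ± 6.28 TPM in ET loin and 2.57 ± 0.991 TPM in L loin, against 23.2 ± 6.84 and 16.2 ± 5.15 TPM in tenderloin of ET and L. The summed level of those markers was 606 to 1401 TPM in ET loin and 519 to 771 TPM in L loin, against 727 to 964 and 464 to 616 TPM in ET and L tenderloin.

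**Figure D3:**
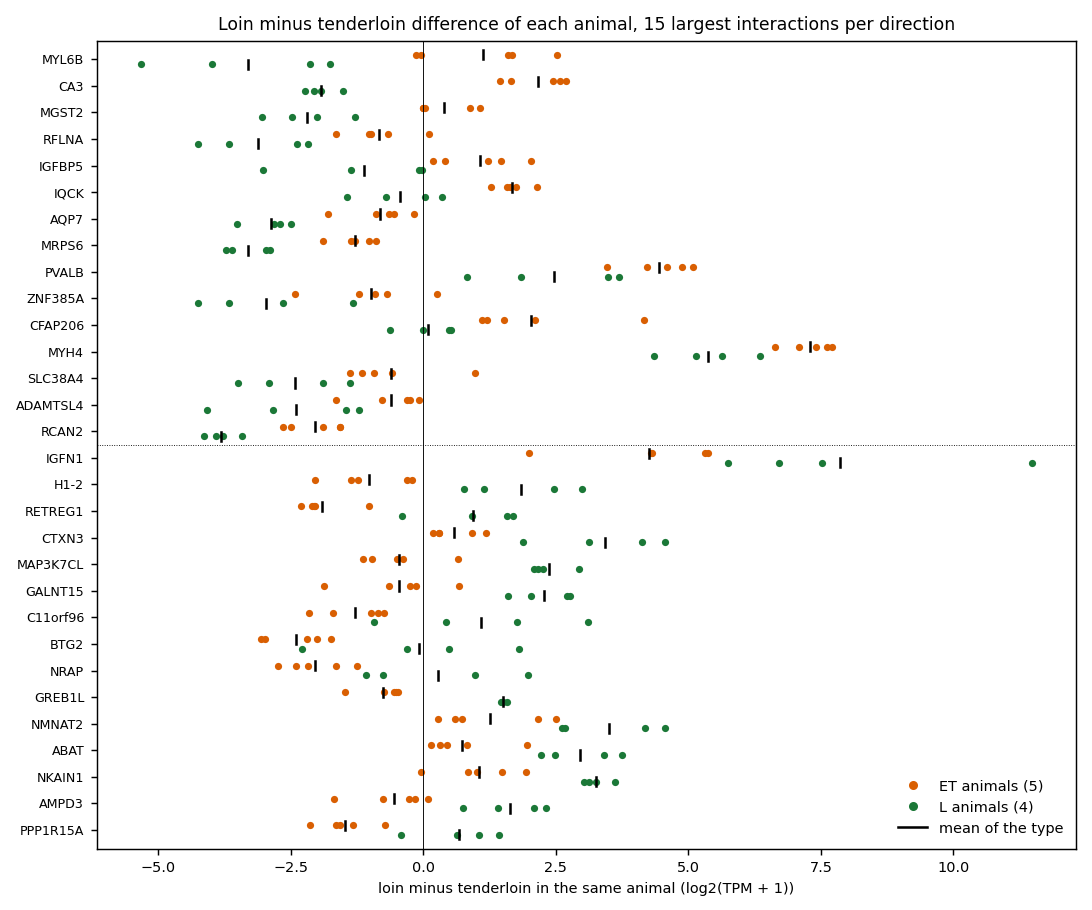
Loin minus tenderloin of each animal on log2(TPM + 1) for the 15 genes with the largest interaction in each direction, higher ones above the dotted line; ET animals are drawn above L animals in each row and black bars are means. In CA3 the ET animals lie at 1.45 to 2.69 and the L animals at -2.24 to -1.52, and in GREB1L the 4 L animals lie between 1.46 and 1.58.

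Among genes called lower, GREB1L, a gene needed for kidney development in mouse and human, had the smallest p. It had 3.09, 4.76, 7.14, 5.85 and 3.01 TPM in ET loin, against 8.86, 12.1, 13.9 and 11.5 TPM in L loin. In tenderloin the order was turned round, with 5.89, 7.27, 10.9, 8.48 and 10.2 TPM in ET, against 2.58, 3.63, 4.30 and 3.16 TPM in L. Among the 9 animals the types did not overlap in either muscle, and the loin minus tenderloin difference was -1.48 to -0.47 in ET animals and 1.46 to 1.58 in L animals. The tenderloin library of the L animal S0355, which entered no fit, held 6.33 TPM, within the ET range. The interaction was -2.26 (SE 0.22, limma adjusted p = 8.34e-04; -2.0 and 0.00538 when scaled).

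RETREG1, a receptor for the breakdown of endoplasmic reticulum by autophagy, differed between the types in loin. ET loin held 57.6, 51, 23.8, 40.1 and 47.2 TPM, against 72.8, 702, 156 and 2012 TPM in L loin. ET tenderloin held 242.2, 104, 105, 203 and 200 TPM, against 97.3, 234, 83 and 624 TPM in L tenderloin. L loin was above ET loin in every library but spread widely, with S0385 and S0377 far above S0349, and the types overlapped in tenderloin. The interaction was -2.85 (SE 0.39, limma adjusted p = 0.00542). AMPD3, an AMP deaminase, was lower in ET in both muscles, with 3.71, 3.54, 3.35, 7.74 and 4.23 TPM in ET loin, against 95.2, 141, 54 and 212 TPM in L loin. Tenderloin had 14.1, 4.02, 4.28, 7.22 and 7.94 TPM in ET, against 21.6, 27.7, 19.8 and 125.8 TPM in L. The types were separate in both muscles and farther apart in loin (-2.19, limma adjusted p = 0.00999). The glycosyltransferase GALNT15 averaged 7.05 ± 9.13 and 217 ± 289 TPM in ET and L loin, against 9.51 ± 9.73 and 50.3 ± 71.6 TPM in ET and L tenderloin (-2.73, limma adjusted p = 0.00645). Its types overlapped in both muscles.

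NRAP, a scaffold of myofibril assembly, had 169, 150, 137, 117 and 115 TPM in ET loin, against 840, 930, 490 and 644 TPM in L loin. In tenderloin it had 895, 679, 933, 280 and 360 TPM in ET, against 213, 470, 838 and 1365 TPM in L. ET loin lay below all other libraries, and the tenderloin libraries of the types overlapped. The interaction was -2.32 (limma adjusted p = 0.0253), which was lost when scaled (adjusted p = 0.0821) and without S0276 or S0377. Other large values were -2.87 for the linker histone H1-2, a member of a near-identical family, -2.85 for CTXN3, -2.83 for MAP3K7CL, -2.26 for the NAD-synthesis enzyme NMNAT2, -2.23 for ABAT, which breaks down GABA, -2.21 for NKAIN1 and -2.15 for PPP1R15A, a phosphatase subunit of the stress response. MAP3K7CL had 39.8, 6.26, 7.25, 15.5 and 9.23 TPM in ET loin, against 76.4, 64.2, 31.2 and 51.4 TPM in L loin, and averaged 18.2 ± 6.04 and 9.91 ± 3.29 TPM in ET and L tenderloin. The ET library of S0235 lay within the L range in loin, and the other 4 below it. The sarcomere protein IGFN1 had the largest value, -3.60 (limma adjusted p = 0.0378), and it was called in 2 of the 9 fits without 1 animal and not when scaled (-3.31, adjusted p = 0.0989). In L tenderloin it was listed at 0 in S0349, against 11.9 to 80.3 TPM in ET tenderloin, so the size rests in part on the pseudocount. C11orf96 (-2.38) and the antiproliferative gene BTG2 (-2.33) were each called in 3 of those 9 fits and not when scaled, and NMNAT2 was lost when scaled and without S0276, S0326 or S0377. Of the 15 genes with the largest lower values, 10 were called in every fit without 1 animal.

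Of 25 regulators of fibre type and metabolism tested, 5 were lower and 1 higher, with a median of -0.45. SOX6 and NFATC1 differed between the types in tenderloin more than in loin. SOX6, which represses slow fibre genes in mouse, had 9.35, 11.4, 10.8, 12.7 and 12.9 TPM in ET loin, against 16.7, 9.57, 13.9 and 10.1 TPM in L loin. ET tenderloin had 6.2, 8.11, 8.83, 9.29 and 9.01 TPM, against 2.76, 1.58, 4.13 and 2.04 TPM in L tenderloin. Among the 9 animals the types overlapped in loin and were separate in tenderloin, where all 4 L libraries were lower. The tenderloin library of the L animal S0355, which entered no fit, held 7.37 TPM, within the ET range. The interaction was -1.50 (SE 0.19, limma adjusted p = 0.00344; -1.24 and 0.0134 when scaled). NFATC1, a calcineurin-driven activator of slow fibre genes in mouse, had 13.6, 19, 23.9, 17.1 and 17.4 TPM in ET loin, against 17.5, 17.5, 32 and 19.1 TPM in L loin. Tenderloin held 23.6, 30.6, 40.3, 26.1 and 31 TPM in ET, against 11.7, 11.8, 14.3 and 13.6 TPM in L. Here too only tenderloin was separate, and the loin minus tenderloin difference was below 0 in all ET animals and above 0 in all L animals (-1.36, limma adjusted p = 0.00421; -1.08 and 0.0211 when scaled).

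TEAD1, a factor that binds muscle gene promoters, averaged 55.2 ± 10 and 107 ± 23.5 TPM in ET and L loin, against 63.1 ± 14.3 and 38.3 ± 16.9 TPM in ET and L tenderloin (-1.73, limma adjusted p = 0.00594; 0.0129 when scaled). ET animals had close to equal TEAD1 in the muscles, with differences of -0.42 to 0.01, and L animals had more in loin, with differences of 0.75 to 2.11. MEF2A (-0.95, limma adjusted p = 0.0105) and MEF2C (-1.14, limma adjusted p = 0.0244) were lower too, and neither passed when scaled. The retinoid receptor RXRG was higher at 1.75 (limma adjusted p = 0.0389), was called in 3 of the 9 fits without 1 animal and did not pass when scaled (adjusted p = 0.058). SOX6, NFATC1 and TEAD1 were called in every fit without 1 animal.

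Genes of calcium handling, the Z-disc and glycogen held lower calls on the deposited scale and none that were higher. Of 20 calcium handling and excitation coupling genes, 4 were lower, with a list median of -0.44: the calcium channel CACNA1S (-0.91), the release channel RYR1 (-1.04), and TRDN (-0.89) and JSRP1 (-0.80), which belong to the release complex. Of 21 Z-disc and mechanical stress genes, NRAP, the giant proteins NEB (-1.11) and TTN (-1.02) and CAVIN4 (-1.51) were lower, with a median of -0.45. Of 19 glycogen genes, 6 were lower, with a median of -0.51. PYGM, the muscle glycogen phosphorylase, had 5753, 9848, 10429, 6881 and 5909 TPM in ET loin, against 11757, 10961, 15129 and 13401 TPM in L loin, and averaged 3681 ± 1131 and 2707 ± 965 TPM in ET and L tenderloin (-1.21, limma adjusted p = 0.0253). The libraries of the types were separate in loin. PHKA1, a subunit of the kinase that activates it, was at -1.25 (limma adjusted p = 0.0169), and AMPD1, the AMP deaminase of fast fibres, at -1.41 (limma adjusted p = 0.0252). AMPD1 belongs to 17 purine nucleotide, phosphocreatine and carbonic anhydrase genes, of which AMPD1 and AMPD3 were lower and CA3 higher, with a median of -0.08, above that of all genes. None of the calls in the calcium, Z-disc and glycogen lists was kept when scaled, nor was that of AMPD1. The scaled list medians were -0.15, -0.15 and -0.25, beside -0.02 for all genes. When scaled, the calcium list held 1 higher call, of a gene not called on the deposited scale, and none that were lower. Without S0377 none of the genes named in those 3 lists was called, nor was AMPD1. RYR1 and TTN were called in 2 of the 9 such fits, TRDN in 3, JSRP1 and CAVIN4 in 4, and NEB and AMPD1 in 5. With S0355 added, AMPD1 and the genes named in those 3 lists other than NRAP and CAVIN4 had a positive interaction, between 0.09 and 1.04, and none passed.

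Genes of muscle wasting, of autophagy and of a list that joins glucocorticoid-induced and circadian genes were among the lower calls. Most of those named had their highest levels in L loin. Of 19 myostatin, atrophy and proteolysis genes tested, 6 were lower and none higher, with a median of -0.59, and 6 of the 19 lay above the median of all genes. FBXO32, a ubiquitin ligase of muscle wasting also known as atrogin-1, had 128, 151, 138, 195 and 178 TPM in ET loin, against 380, 1353, 550 and 2194 TPM in L loin. Tenderloin had 203, 117, 104, 229 and 226 TPM in ET, against 183, 245, 198 and 827 TPM in L. The types did not overlap in loin and overlapped in tenderloin (-1.69, limma adjusted p = 0.0109; 0.0359 when scaled). Its partner ligase TRIM63 had 178, 136, 357, 162 and 180 TPM in ET loin, against 278, 866, 776 and 3280 TPM in L loin, with 260, 125.6, 231, 160 and 148 TPM in ET tenderloin, against 52.1, 228, 386 and 1518 TPM in L tenderloin. The highest L value was that of S0385 in both muscles, and the interaction was -1.51 (limma adjusted p = 0.0169; 0.0779 when scaled). FBXO30 averaged 7.57 ± 0.665 and 43.0 ± 28.6 TPM in ET and L loin, against 7.06 ± 1.63 and 9.10 ± 2.15 TPM in ET and L tenderloin (-1.80, limma adjusted p = 0.00999; 0.0234 when scaled).

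Of 25 autophagy genes, 9 were lower and none higher, with a median of -0.58, and 4 of the 25 lay above the median of all genes. When scaled 1 of them passed, the kinase ULK2 (-1.12, limma adjusted p = 0.0145). SQSTM1, a receptor for cargo of autophagy, averaged 406 ± 77.9 and 1367 ± 234 TPM in ET and L loin, against 426 ± 134 and 703 ± 314 TPM in ET and L tenderloin (-1.09, limma adjusted p = 0.0175; 0.106 when scaled). Of 28 glucocorticoid-induced and circadian genes, 8 were lower and none higher, with a median of -0.61. The 8 included circadian genes, which are not named here, and 10 of the 28 lay above the median of all genes. The glucocorticoid receptor NR3C1 averaged 16.6 ± 5.02 and 25.2 ± 3.71 TPM in ET and L loin, against 19.2 ± 6.12 and 12 ± 1.77 TPM in ET and L tenderloin (-1.20, limma adjusted p = 0.0121), and it was the 1 gene of this list that passed when scaled (adjusted p = 0.0403). Its target FKBP5 (-1.0) and TSC22D3 (-1.32), another glucocorticoid-induced gene, were lower on the deposited scale and did not pass when scaled (adjusted p = 0.058 and 0.0586). TRIM63, ULK2, FKBP5 and TSC22D3 were each lost without S0377 and kept in the other 8 fits.

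Lists of hormone signalling were mixed. Of 20 insulin and glucose uptake genes, 5 were lower, with a median of -0.50. The insulin receptor INSR had 4.39, 4.69, 3.46, 5.69 and 3.01 TPM in ET loin, against 12.1, 15.7, 7.23 and 21 TPM in L loin, and averaged 12 ± 5.23 and 12.7 ± 8.81 TPM in ET and L tenderloin (-1.48, limma adjusted p = 0.0226; 0.0823 when scaled). TBC1D1, a brake on glucose transporter traffic, was at -1.58 (limma adjusted p = 0.0121; 0.0303 when scaled). Of 18 growth hormone and insulin-like growth factor genes, 7 were lower and IGFBP5 was higher, with a median of -0.01, and 11 of the 18 lay above the median of all genes. IGF1R, the receptor of these growth factors, averaged 3.38 ± 0.754 and 7.08 ± 2.29 TPM in ET and L loin, against 5.93 ± 1.54 and 4.37 ± 1.65 TPM in ET and L tenderloin (-1.25, limma adjusted p = 0.0112; 0.0276 when scaled). IGF2R, the receptor that clears one of them (-1.39, limma adjusted p = 0.0112), passed when scaled as well, and the growth hormone receptor GHR (-1.30, limma adjusted p = 0.0209) did not. INSR was lost without S0326 or S0377, and GHR without S0377.

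Immediate early genes, which respond to stimuli within minutes, had the lowest list median, -1.10, and all 22 members tested lay below 0. Over all genes tested 8147 of 10796 lay below 0, and 21 of the 22 members lay below the median of all genes, -0.27. In the list 8 genes were called lower and none higher, and 1 passed when scaled, with a scaled median of -0.82. MAFF, a small Maf transcription factor, had 21.1, 2.23, 5.68, 4.96 and 6.09 TPM in ET loin, against 5.59, 6.99, 19.4 and 20.3 TPM in L loin. Tenderloin had 52.1, 11.6, 29.9, 23.3 and 20 TPM in ET, against 3.87, 9.12, 11.4 and 29.9 TPM in L. The types overlapped in each muscle, but every ET animal had less MAFF in loin than in tenderloin, by values of -2.21 to -1.26, and the L animals lay at -0.53 to 0.72 (-1.88, limma adjusted p = 0.00594; 0.0293 when scaled). JUNB was at -1.57 (limma adjusted p = 0.0137; 0.064 when scaled). The list's median type difference was -0.30 in loin and 0.94 in tenderloin. Among 22 DNA damage and cell arrest genes 6 were lower, led by the kinase PLK2 (-1.75, limma adjusted p = 0.00999), which also passed when scaled.

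**Figure D4:**
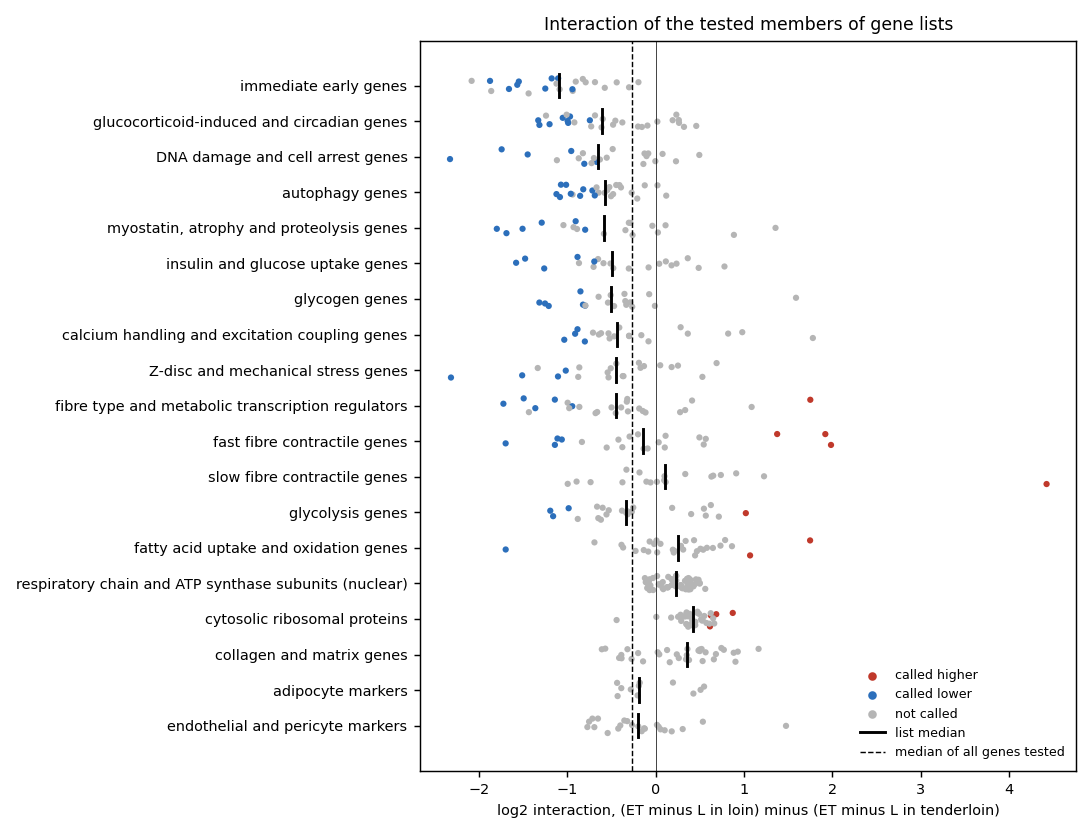
Log2 interaction of every tested member of 19 gene lists, coloured where called; thick bars are list medians and the dashed line is the median of all genes, -0.27. Immediate early genes lie farthest to the left, with a median of -1.10, and cytosolic ribosomal proteins to the right, with a median of 0.42.

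Cytosolic ribosomal proteins lay in the other direction. Of 41 tested, 4 were higher and none lower, with a median of 0.42, and when scaled 13 were higher with a median of 0.72. Those higher included RPS3 (0.68), RPS16 (0.87) and RPL18 (0.62). RPS16 had 812, 1013, 578, 835 and 1174 TPM in ET loin, against 400, 520, 487 and 649 TPM in L loin, and averaged 609 ± 48.2 and 663 ± 112 TPM in ET and L tenderloin (limma adjusted p = 0.0344; 0.0238 when scaled). The L loin libraries were the low ones, with an overlap of S0276 and S0385. RPS3, RPS16 and RPL18 were called in 5, 2 and 2 of the 9 fits without 1 animal, and ribosomal protein reads can be shared with processed copies. Respiratory chain and citrate cycle lists held no call: 0 of 52 respiratory chain and ATP synthase subunits, 0 of 24 citrate cycle genes and 0 of 9 mitochondrially encoded genes passed by limma. Their medians were 0.23, -0.10 and 0.04, and 1, 2 and 1 of them had an unadjusted p under 0.05. All 52 subunits, 18 of the citrate cycle genes and 7 of the mitochondrially encoded genes lay above the median of all genes, -0.27. When scaled, the list medians were 0.53, 0.20 and 0.34, beside -0.02 for all genes. No collagen or matrix gene of 33 was called, with a median of 0.35 and 8 at an unadjusted p under 0.05, and COL5A1 and SPARC passed when scaled. Endothelial and pericyte markers (23 tested), myeloid markers (14), T, NK and B cell markers (6), red cell markers (4), nerve and Schwann cell markers (6) and tendon markers (3) held no call either, and in this order 5, 0, 2, 0, 1 and 0 of their genes had unadjusted p-values under 0.05.

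Transcript length moved with the direction of the interaction. Among the 2160 genes whose most abundant transcript was shortest, 351 to 1831 bases, the median was -0.07, with 4.07% called lower and 1.25% higher. Among the 2159 genes with the longest, 5144 to 70459 bases, the median was -0.39, with 14.1% called lower and 0.232% higher. When scaled, the longest had 2.32% lower and 0.509% higher, against 0.509% lower and 2.64% higher in the shortest. Ribosomal proteins are encoded by short transcripts and the giant sarcomere proteins by long ones. The part of transcript length in these results was not tested.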

How the data were processed

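Loin and tenderloin of 10 minipigs were sequenced from TRIzol-extracted total RNA with a stranded mRNA kit, per the labels' protocols. The authors deposited TPM for 57085 transcripts of their own assembly. Trimmomatic 0.36 and Salmon 1.10.0 are named in the submitters' processing notes, as is the build Sscrofa11.1, without its role. Replicates were not pooled. TPM keeps no depth.

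Transcripts were given the Swiss-Prot entry of their best BLASTX hit in the deposited annotation at an E value of at most 1e-10, with the species suffix dropped, and the TPM were summed. The 32227 transcripts used made up 14429 genes, which held 81.8% to 93% of the TPM of each muscle library; 2374 repeat or retroviral hits, 1864 hits above the limit, 19 from outside animals and 20601 transcripts without a hit were left out. The median identity was 92.8%, so a name stands for the closest described protein.

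The interaction was fitted with limma 3.58.1 in R 4.3.3, with an intensity trend, on log2(TPM + 1), with the animal as a block and a mean TPM of at least 1. Fold changes on this scale understate those of low genes. Tests were two-sided, with Benjamini-Hochberg adjustment over all genes, and the fit was tested on simulated data. "When scaled" means that each library was first divided by the median ratio of its genes. The labels give animals and do not otherwise describe replicates. Same-animal deviations from the group means correlated between the muscles with a median r of 0.45 across genes (9 pairs, 0.35 to 0.63), against -0.15 between different animals of a type (32 pairs), which includes a downward pull from centring on the group mean.

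The groups compared, the 41 gene lists and the naming rule were chosen with earlier results of these data known. The rule takes the 15 called genes with the largest interaction per direction at a mean of at least 5 TPM in the highest group, and at most 4 called genes per list, those with the smallest p. MYH1, MYH2, MYH7, ATP2A1, MEF2C and RXRG were named after their values were seen, as were the scaled calls COL5A1 and SPARC, and 35 list members chosen by the rule are not reported here. Alternatives were other pseudocounts and filters, scaling, other block terms, S0355, 1 transcript per gene, a stricter E value, other variance moderation and each animal left out.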

Additional observations from a re-analysis of the deposited data

Results flagged for a closer look

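The difference of the type effect between the muscles was itself the test in 75 genes named in the report, each past the threshold by limma, and their log2 interactions are collected here. Those above 0 were MYL6B (4.43), CA3 (4.10), MGST2 (2.60), RFLNA (2.28), IGFBP5 (2.19), IQCK (2.12), AQP7 (2.07), MRPS6 (2.01), PVALB (1.98), ZNF385A (1.98), CFAP206 (1.93), MYH4 (1.92), SLC38A4 (1.81), ADAMTSL4 (1.78), RCAN2 (1.77), FABP3 (1.75), RXRG (1.75), LPL (1.46), PI16 (1.42), MYH2 (1.37), ECI1 (1.07), RPS16 (0.87), RPS3 (0.68) and RPL18 (0.62). Those of -1.70 or below were IGFN1 (-3.60), H1-2 (-2.87), RETREG1 (-2.85), CTXN3 (-2.85), MAP3K7CL (-2.83), GALNT15 (-2.73), C11orf96 (-2.38), BTG2 (-2.33), NRAP (-2.32), GREB1L (-2.26), NMNAT2 (-2.26), ABAT (-2.23), NKAIN1 (-2.21), AMPD3 (-2.19), PPP1R15A (-2.15), MAFF (-1.88), FBXO30 (-1.80), PLK2 (-1.75), TEAD1 (-1.73), ACTN3 (-1.70) and ACSL4 (-1.70). Between -1.69 and -1.20 lay FBXO32 (-1.69), TBC1D1 (-1.58), JUNB (-1.57), TRIM63 (-1.51), CAVIN4 (-1.51), SOX6 (-1.50), INSR (-1.48), AMPD1 (-1.41), IGF2R (-1.39), NFATC1 (-1.36), TSC22D3 (-1.32), GHR (-1.30), IGF1R (-1.25), PHKA1 (-1.25), PYGM (-1.21) and NR3C1 (-1.20). The remaining values were ATP2A1 (-1.14), MEF2C (-1.14), ULK2 (-1.12), MYBPC2 (-1.11), NEB (-1.11), SQSTM1 (-1.09), SMTNL1 (-1.06), RYR1 (-1.04), TTN (-1.02), FKBP5 (-1.0), MEF2A (-0.95), CACNA1S (-0.91), TRDN (-0.89) and JSRP1 (-0.80). None of these values has an independent check, since the animals are the ones that chose the genes.

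In 6 of the 154 sets of loin minus tenderloin differences behind the named genes, 1 animal lay far from the others of its type. The test of gaps used is one that chance passes in about 1 in 20 groups, and the share flagged was not above that. RETREG1 was at -1.02 in S0242, against -2.31 to -2.05 in the other ET animals. GREB1L was at -1.48 in S0326, against -0.75 to -0.47. Among L animals NFATC1 was at 1.11 in S0384, against 0.46 to 0.54 in the others, RYR1 at 0.65 in S0384, against 1.80 to 1.99, and MYH1 at 0.36 in S0384, against 1.95 to 2.14. TTN was at 2.14 in S0377, against 0.68 to 0.86 in the other L animals.

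Outside the comparison, the library labelled loin of S0355 held ADIPOQ at 1139 TPM, against at most 4.20 TPM in the other muscle libraries, and the library labelled backfat of that animal held CKM at 23749 TPM, against at most 97.9 TPM in the other backfat libraries.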

How the results depend on the processing

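On the deposited scale 1045 genes were called, 74 higher and 971 lower. Median-ratio scaling gave 261 calls (137 higher, 124 lower), the set of all genes without a filter 622 (36 and 586), and 1 transcript per gene 629 (48 and 581). With S0355 no gene was called, as deposited (2212 at an unadjusted p under 0.05) or scaled (0 higher and 0 lower; 1180). Fits without any 1 animal gave 156 to 1541 calls, 18 to 96 higher and 138 to 1445 lower. The counts stayed within 1.5 times under a pseudocount of 0.1 or 5, a mean TPM of at least 5, a stricter E value, no intensity trend, robust moderation, a random replicate block, species-specific entries and removal of mitochondrially encoded genes; the last 2 and the scaled fit with S0355 were chosen after seeing the data.

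The animals pair the muscles. With no replicate block for the animal 77 genes were called (10 higher, 67 lower), all among the 1045, and 14 of the 75 named ones. Of the 75, 41 were called when scaled, 63 with 1 transcript per gene and 35 without S0377; the cause of these losses was not tested. The 11 genes called in every fit without S0355 did not pass with it.

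Signs turned in these cases. With S0355, whose library labelled loin held fat transcripts, the log2 interaction was 0.91 for MYBPC2, 0.72 for SMTNL1, 0.21 for ACTN3, 0.77 for CACNA1S, 1.04 for JSRP1, 0.71 for TRDN, 0.78 for RYR1, 0.97 for NEB, 0.65 for TTN, 0.09 for PHKA1, 1.02 for PYGM, 0.54 for AMPD1, 0.11 for TRIM63, 1.79 for MYH1, 1.81 for MYH7 and 1.28 for ATP2A1. With S0355 and scaling it was 1.32 for MYBPC2, 1.05 for SMTNL1, 0.65 for ACTN3, 1.07 for CACNA1S, 1.34 for JSRP1, 1.13 for TRDN, 1.12 for RYR1, 1.31 for NEB, 0.23 for CAVIN4, 0.99 for TTN, 0.53 for PHKA1, 1.45 for PYGM, 0.87 for AMPD1, 0.13 for FBXO32, 0.49 for TRIM63, 2.12 for MYH1, 2.13 for MYH7 and 1.62 for ATP2A1. With 1 transcript per gene IQCK was at -0.33. MYH7, which was not called, was at 0.12 when scaled, and between -0.50 and 0.19 without any 1 animal, above 0 without S0242 (0.19) or S0385 (0.09).

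TPM keeps no depth, so no counting error can be given; the limit is the number of animals, 5 and 4.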

Other observations

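Other lists are also read against the shares called over all genes, 0.685% higher and 8.99% lower. Of 30 proteasome subunits 5 were lower and none higher, with a median of -0.33, and none passed when scaled. All 30 lay below 0, as did 8147 of the 10796 genes tested, and 19 lay below the median of all genes, -0.27. Their scaled median was -0.03, beside -0.02 for all genes. Among 23 glycolysis genes 3 were lower and 1 higher, and the median was -0.34. The 30 antioxidant genes held 3 lower and 1 higher call, and that gene was MGST2, with a median of -0.01. Of 20 cholesterol synthesis genes 2 were lower, and no call was made among 32 interferon response genes or 28 positional factors, which mark body regions in development, with medians of -0.18 and -0.14.

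The tenderloin library of S0355, the L animal left out, gives values that entered no fit. It held CA3 at 1212 TPM and MYL6B at 1479 TPM, both above every ET tenderloin library and within the range of the 4 L ones. NFATC1 stood at 11.5 TPM in it, below every ET tenderloin library. SOX6 stood at 7.37 TPM and GREB1L at 6.33 TPM, each within the ET range and above all 4 L tenderloin libraries. ACTN3 stood at 883 TPM, within the ET range and within that of the 4 L libraries. MYH4 stood at 47.5 TPM, below every ET and L tenderloin library used, and PVALB at 6.38 TPM, above all of them.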
